A study of Drosophila melanogaster with 4 samples.

Results

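ASH1 and FSH peaks were paired where 1 ASH1 peak and 1 FSH peak overlapped by at least 1 bp and neither overlapped any further peak of the other list. This gave 7022 one-to-one pairs outside the mitochondrial genome. The pairs described here were selected on the scores of their peaks, with FSH of at least 1000 and ASH1 below 300, and they numbered 206, or 2.93% of all pairs. These are sites where both proteins were called, with a high FSH score and a low ASH1 score. Both scores were used to choose them, so the scores are given as a description and no test is made. The limits correspond to the upper 41.7% of the FSH list and to the lower 29.2% of the ASH1 list.

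The data came from S2-DRSC cells, a cultured line of embryonic origin from Drosophila melanogaster, with no treatment named in the labels before fixation with formaldehyde. ASH1-bound chromatin was precipitated with the antibodies ASH1N and ASH1C, and FSH-bound chromatin with the preparations FSH-S and FSH-S+L, which makes 4 libraries. The methods assign one FSH preparation to the long isoform alone, while its sample label says FSH-S. The authors pooled the antibodies of each protein before peaks were called against input chromatin, so 1 list per protein was analysed, no spread between replicates exists, and the number of reads behind a peak is unknown.

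ASH1 is a histone methyltransferase of the Trithorax group, the proteins that maintain active gene expression states. FSH, encoded by female sterile (1) homeotic, belongs to the same group and is the only BET protein of the fly. Proteins of this family recognise acetylated lysines of histones through paired bromodomains and recruit factors of the transcription machinery. ASH1 and FSH are both known from genetics as activators of the homeotic genes. An annotation or a genome sequence of BDGP Release 5, to which all positions refer, was not used here, so the sites are given by position and not by gene.

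The score is the value that the peak caller gave each peak in its comparison with input. The lowest score in either list was 50.02. Since the P value cut-off corresponds to 50 on a scale of -10 log10(P), scores were taken to be on that scale. Such a score measures significance and not the amount of bound protein, and strong and weak refer to scores only. The 206 pairs had a median FSH score of 1891 (quartiles 1340 and 3081) and a median ASH1 score of 161 (quartiles 107 and 232). Of these, 52 had an FSH score of 3100 or above, including 49 at exactly 3100, a value at which many peaks of both lists are tied. A further 41 lay between 2000 and 3100, and 113 below 2000. On the ASH1 side, 48 pairs scored below 100, 81 between 100 and 200, and 77 from 200 to 300. The pairs were 7.12% of the 2892 pairs with an FSH score of at least 1000 and 16.0% of the 1284 pairs with an ASH1 score below 300. Those larger sets were 41.2% and 18.3% of all pairs, respectively. The opposite combination, ASH1 of at least 1000 with FSH below 300, was found at 628 pairs or 8.94%.

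**Figure D1:**
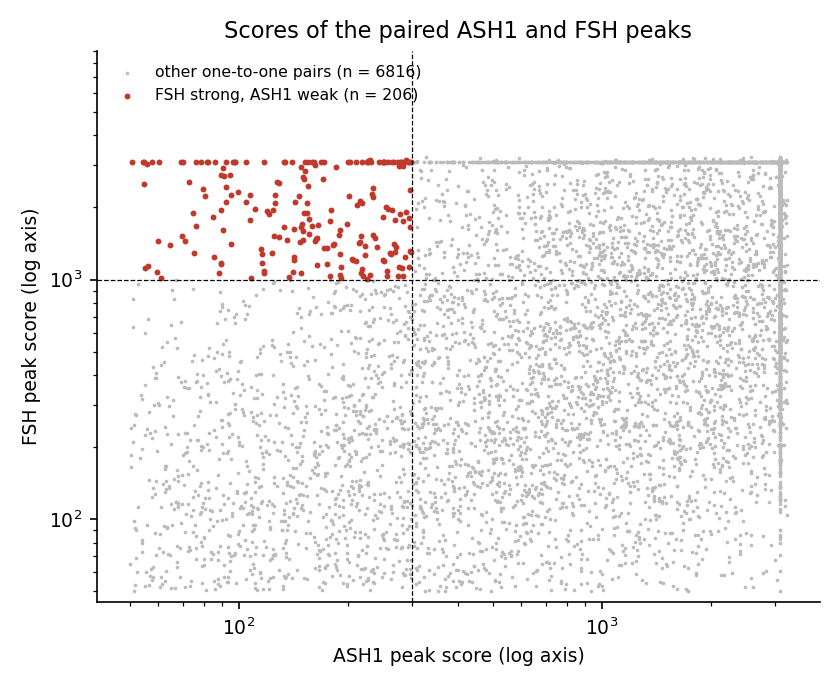
ASH1 score (x axis) and FSH score (y axis) of each one-to-one pair, both on log axes, with the 206 FSH-strong, ASH1-weak pairs in red and all others in grey. Dashed lines mark the limits of 300 and 1000, and the bands at 3100 are tied scores.

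The limits cut through a continuous range of scores. The pairs just inside the FSH limit scored 1003, 1012 and 1013, and those just outside it 996, 997 and 998. The ASH1 scores just inside the other limit were 296, 297.1 and 297.3, and those just outside were 303, 305 and 306. Within the 206 pairs, a higher FSH score did not go with a lower ASH1 score. Spearman's rho between them was -0.06, while over all 7022 pairs it was 0.45. These are correlations across peaks of the same lists, given as a description, and the limits shorten the range of both scores.

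Among strong FSH peaks, a weak ASH1 partner was more frequent than none. The FSH list held 3683 peaks with a score of at least 1000, of which 66 (1.79%) overlapped no ASH1 peak and 206 (5.59%) formed the pairs described here. A further 725 were in overlaps that were not one-to-one, and in 26 of them no overlapping ASH1 peak reached 300. In the ASH1 list, 3142 peaks scored below 300. Of these, 1401 (44.6%) overlapped no FSH peak.

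The strongest contrasts were those with an FSH score of at least 3100 and the lowest ASH1 scores, and the first 8 of them were of different kinds. The lowest ASH1 score, 50.7, belonged to a pair on chromosome 2L with an FSH peak from 19565183 to 19573619 and a score of 3100. On chromosome 3L, an FSH peak (19070856 to 19078234, score 3100) was paired with an ASH1 peak that scored 57.6. These were also the longest FSH peaks among the 206 pairs, with 8437 and 7379 bp, and their ASH1 peaks of 8503 and 7381 bp covered nearly the same positions. In contrast, the remaining 6 of the 8 pairs had FSH peaks of 595 to 1033 bp.

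Of these compact sites, 2 lay on the X chromosome. An FSH peak from 12404478 to 12405326 (score 3100) carried an ASH1 peak of 469 bp with a score of 54.3 at one end. The centres of both peaks were 210 bp apart, and the next peak of either list was 13039 bp away. The other X-linked site, from 10257198 to 10258013, had an ASH1 score of 54.6 and stood 52 bp from a further FSH peak with a score of 186. Thus, similar scores were found at a solitary site and at a site next to other peaks.

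On chromosome 2L, the FSH peak from 9082754 to 9083786 contained an ASH1 peak of 513 bp with a score of 60.2. A second compact site on this arm, from 739904 to 740534, had an ASH1 score of 70.2 and no other ASH1 peak for 40866 bp. On chromosome 3L, the ASH1 scores were 69.0 at the FSH peak from 8644709 to 8645490 and 76.3 at that from 21194162 to 21194756. The second of these was flanked at 270 bp by an FSH peak with a score of 1724 and at 287 bp by an ASH1 peak with a score of 1005. All 6 compact sites had an FSH score of 3100, so they have no order by FSH.

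The weak ASH1 peak was mostly contained in the FSH peak. This was the case at 153 of the 206 pairs, or 74.3% (Wilson 95% confidence interval 67.9% to 79.8%, for counting error only), compared to 39.8% of all pairs (38.7% to 41.0%). The FSH peak was contained in the ASH1 peak at 6 pairs (2.91%, against 15.0% of all pairs). At 47 pairs the ends were shifted against each other. ASH1 covered a median of 81.4% of the FSH peak, against 92.3% over all pairs. The median ratio of ASH1 to FSH peak length was 0.82 (95% binomial interval 0.80 to 0.85), against 0.95 over all pairs. Here and below, intervals treat peaks as independent, and no test was made, because length and position come from the same reads as the scores.

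The position of the ASH1 peak relative to the FSH peak was close to central, as it was in other pairs. The centres of both peaks were a median of 39 bp apart (32 to 51.5 bp). This median was 49.5 bp over all pairs and 38.5 bp at pairs weak for both proteins. Centres within 100 bp were found at 154 of 206 pairs (74.8%), against 70.7% of all pairs. The centre of the FSH peak fell into the ASH1 peak at 95.6% of the pairs. The value was 99.0% for pairs strong for both, 98.2% for pairs weak for both and 99.2% for strong ASH1 with weak FSH. In the pairs described here, 35.0% of the FSH peaks still continued 500 bp upstream or downstream of their centre on the reference strand. At these positions, 20.4% and 24.3% of the ASH1 peaks continued. At 30 pairs the centres were more than 200 bp apart. The largest distance, 810 bp, was found on the X chromosome, where an FSH peak from 4000837 to 4003465 (score 2373) contained an ASH1 peak of 617 bp with a score of 296. Next came a site on chromosome 2L with a distance of 527.5 bp, where the ASH1 peak of 2654 bp (score 117) was the longer one and contained the FSH peak from 8683166 to 8684228 (score 1061).

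**Figure D2:**
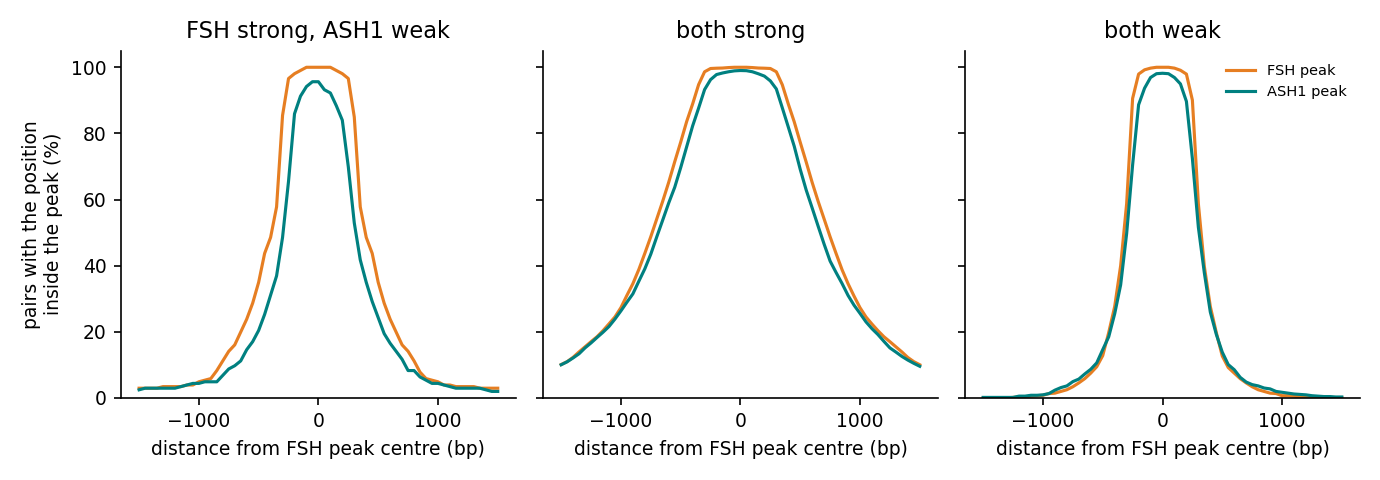
Percentage of pairs (y axis) whose FSH peak (orange) or ASH1 peak (green) includes a position at a given distance in bp from the centre of the FSH peak (x axis), for 206 FSH-strong, ASH1-weak pairs, 2137 pairs strong for both and 775 pairs weak for both. In the left panel the ASH1 curve lies inside the FSH curve out to 1000 bp, with 48.5% against 85.4% at 300 bp upstream. In the right panel it lies inside near the centre, with 49.7% against 58.7% at 300 bp and 70.5% against 90.6% at 250 bp upstream. Farther out the curves of the right panel cross, with 14.6% for ASH1 and 12.8% for FSH at 500 bp upstream. In the middle panel the ASH1 and FSH values are 93.3% and 98.6% at 300 bp upstream.

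The containment was compared with other pairs that had an ASH1 score below 300. Their share with a contained ASH1 peak was 27.5% at FSH scores of 50 to 100, 44.4% at 100 to 300 and 63.0% at 300 to 1000. In the pairs described here it was 71.7% at FSH scores from 1000 to 2000, 85.4% from 2000 to 3100 and 71.2% at 3100 and above. Hence, the share was lowest at the weakest FSH peaks, but the highest FSH class did not have the highest share. The pairs with ASH1 of at least 1000 and FSH below 300 were not a mirror image. Their FSH peak was contained in the ASH1 peak at 19.9% of 628 pairs, and the median ratio of lengths was 0.97. Over all pairs, the FSH peak was contained at 15.0% and was the longer of both peaks at 65.3%.

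The FSH peaks were narrow for their score, more clearly so on the autosomal arms than on X. Their median length was 783.5 bp (705 to 902 bp, quartiles 636 and 1181 bp), whereas 2137 pairs with scores of at least 1000 for both proteins had a median FSH length of 1475 bp (1429 to 1512 bp). Pairs with weak ASH1 and FSH scores of 300 to 1000 had a similar median FSH length of 802 bp (749 to 856 bp, n = 303). Such lengths were thus not limited to strong FSH peaks. The difference from pairs strong for both was found in each class of FSH score. From 1000 to 1500 the medians were 944 bp (n = 73) and 1205 bp (n = 498), and from 1500 to 2000 they were 748.5 bp (n = 40) and 1351 bp (n = 295). From 2000 to 3100 the FSH peaks had medians of 831 bp (n = 41) with weak ASH1 and 1476 bp (n = 417) with strong ASH1. At 3100 and above, the medians were 720 bp (n = 52) and 1835 bp (n = 927). Thus, FSH peaks with strong ASH1 were longer in each higher class, whereas those with weak ASH1 were not. On the autosomal arms the median was 754 bp (677 to 879 bp), against 1530 bp (1491 to 1582 bp) at pairs strong for both. On X these medians were 1067 bp (722 to 1254 bp) and 1387 bp (1250 to 1457 bp), with intervals that just overlapped.

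**Figure D3:**
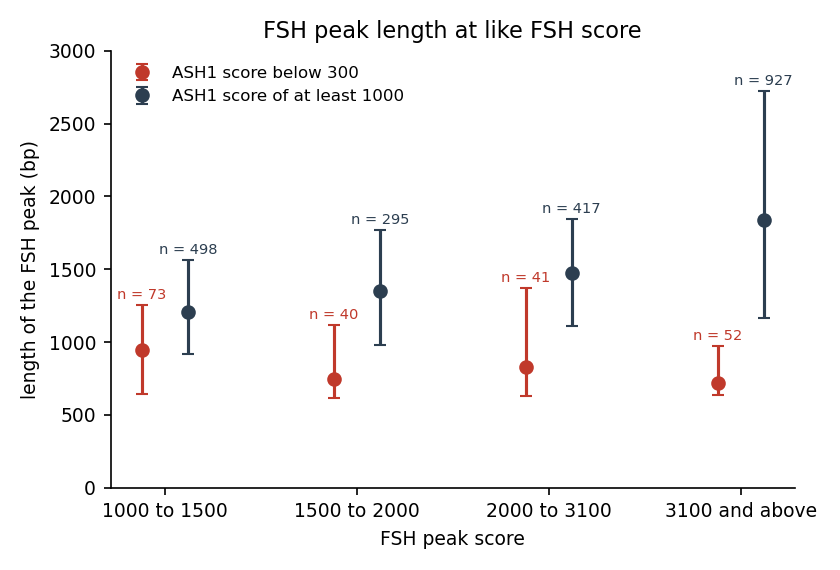
Length of the FSH peak in bp (y axis) in 4 classes of FSH score (x axis), for pairs with an ASH1 score below 300 (red) and of at least 1000 (dark). Points are medians, bars span the quartiles, and n is the number of pairs. The red medians lie between 720 and 944 bp, below the dark median of the same class in each case.

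The ASH1 peaks themselves resembled other weak ASH1 peaks in length. Their median was 596 bp (556 to 657 bp), and that of pairs weak for both proteins was 603 bp (581 to 619 bp). In classes of ASH1 score, the medians were 511 bp with strong FSH and 518.5 bp with weak FSH at scores of 50 to 100, 585 and 609 bp at 100 to 200, and 737 and 707.5 bp at 200 to 300. Weak ASH1 peaks under strong FSH were thus not set apart by their length. The 66 strong FSH peaks that overlapped no ASH1 peak were short as well, with a median of 648.5 bp (600 to 792 bp), and their median score of 1746 was close to the 1891 of the pairs.

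Long FSH peaks were a minority. An FSH peak of at least 1000 bp was present at 72 of the 206 pairs, and one of at least 2000 bp at 10. Over all pairs the median FSH length was 987 bp, with quartiles of 705 and 1463 bp. Peaks of at least 2000 bp were thus a minority there too. Besides the peaks of 8437 and 7379 bp, an FSH peak on chromosome 2L from 16795267 to 16800479 (score 2956) extended over 5213 bp and contained an ASH1 peak of 1866 bp with a score of 185. On the X chromosome, FSH and ASH1 peaks of 4270 and 3995 bp were paired at 16174570 to 16178839, with scores of 1974 and 110. At the opposite end of the range, the shortest FSH peaks had 224 bp (chromosome 2L, 20747405 to 20747628, score 1945) and 250 bp (chromosome 3R, 23176356 to 23176605, score 2540). Their ASH1 peaks of 196 and 239 bp had scores of 124 and 128.

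The pairs were unevenly distributed over the chromosomes. The X chromosome carried 55 of them, or 26.7% (21.1% to 33.1%), but 15.6% of all pairs (14.8% to 16.5%) and 10.3% of the pairs strong for both proteins (9.12% to 11.7%). The other arms carried 42 (3L), 37 (2R), 34 (2L) and 31 (3R). Chromosome 4 carried 3, and the unplaced sequences U and Uextra carried 2 each. On the assembled heterochromatin (2LHet, 2RHet, 3LHet, 3RHet and XHet), 0 of 81 pairs were of this kind, which allows a share of up to 3.70% and thus includes the 2.93% of all pairs. Relative to all pairs of a chromosome, the share was 5.01% on X (3.87% to 6.47%) and 2.59% on the 4 autosomal arms together (2.20% to 3.04%). It was lowest on 3R with 1.99% and ranged up to 3.12% on 3L among the autosomal arms, whose intervals overlapped.

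Among pairs with an FSH score of at least 1000, the share on X was lower at higher ASH1 scores, apart from the lowest class. It was 27.1% at ASH1 scores of 50 to 100 (n = 48), 34.6% at 100 to 200 (n = 81) and 18.2% at 200 to 300 (n = 77). At higher ASH1 scores it was 16.2% from 300 to 1000 (n = 549), 10.8% from 1000 to 3100 (n = 998) and 9.92% at 3100 and above (n = 1139). A high share on X was also found at weak ASH1 peaks with FSH scores of 300 to 1000 (30.0% of 303 pairs), but less so where FSH was below 300 (19.5% of 775). It was therefore not limited to strong FSH peaks.

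**Figure D4:**
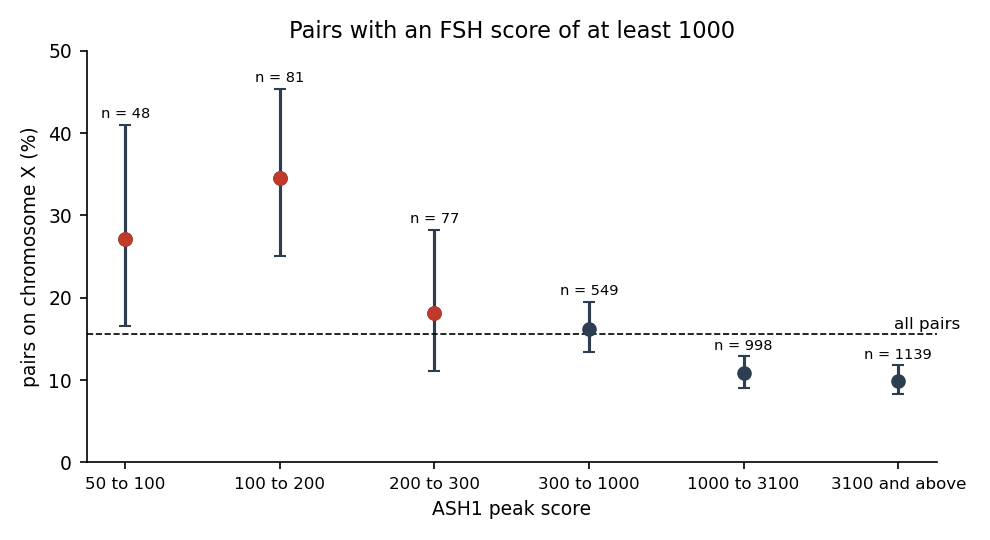
Percentage of pairs located on the X chromosome (y axis) by ASH1 score (x axis), among pairs with an FSH score of at least 1000. Bars are Wilson 95% confidence intervals, n is the number of pairs, the classes described here are in red, and the dashed line marks 15.6%, the value of all pairs. The classes below 200 lie above the line and those from 1000 lie below it.

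Scores on the X chromosome were lower in both lists. The median score of all ASH1 peaks was 509 on X and 948 on the autosomal arms, and that of all FSH peaks was 557 and 751. Weak ASH1 peaks made up 27.1% of the pairs on X and 15.9% on the autosomal arms, while strong FSH peaks made up 33.3% and 42.2%. When the same fractions of the lists were taken by rank within X and within the autosomal arms, a choice made after the data had been seen, 44 pairs on X (4.01%, 3.0% to 5.34%) and 159 on the autosomal arms (2.86%, 2.45% to 3.33%) qualified, and the intervals overlapped. X then held 21.7% of these pairs (16.6% to 27.8%), an interval that nearly reached the 16.5% of all pairs on these arms. The part that the lower scores on X have in the distribution was not tested beyond this.

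The sites on X and on the autosomal arms were compared in shape, and most intervals overlapped. The median FSH length was 1067 bp on X (722 to 1254 bp, n = 55), compared to 754 bp on the autosomal arms (677 to 879 bp, n = 144), although over all pairs the FSH peaks of X were shorter (824 and 1038 bp). The ASH1 peaks had medians of 567 bp (526 to 657 bp) on X and 627.5 bp (570 to 722 bp) on the autosomal arms. Accordingly, the ratio of ASH1 to FSH length was 0.67 on X (0.60 to 0.81) and 0.85 on the autosomal arms (0.81 to 0.86), and these intervals just met. The ASH1 peak was contained in the FSH peak at 46 of 55 sites on X (71.7% to 91.1%) and at 101 of 144 on the autosomal arms (62.2% to 77.0%). The next peak lay at a median of 972 bp on X (585 to 2574 bp) and of 2954 bp on the autosomal arms (2075 to 4194 bp). A shorter distance on X was also found for all pairs with strong FSH, at 1035 bp (891 to 1342 bp) against 1651 bp (1533 to 1774 bp), and over all pairs, at 1349 and 1612 bp.

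By median distance, these sites lay farther from other peaks than all pairs did. The nearest other ASH1 or FSH peak lay at a median distance of 2549.5 bp (1708 to 3638 bp), against 1634 bp (1584 to 1725 bp) over all pairs. Another peak was present within 5 kb at 138 of the 206 pairs, or 67.0% (60.3% to 73.0%), compared to 78.6% of all pairs (77.6% to 79.5%). This was the case at 43 of the 55 sites on X (78.2%) and at 93 of the 144 on the autosomal arms (64.6%). The share was 78.1% for pairs strong for both proteins, 75.6% for those weak for both and 82.3% for those with strong ASH1 and weak FSH. By FSH score, the gap between weak and strong ASH1 was uneven. With weak ASH1 the share was 69.9% at FSH scores of 1000 to 1500 and 65.0% at 1500 to 2000, against 75.7% and 81.0% with strong ASH1. From 2000 to 3100 the shares were 75.6% and 78.4%, and the median distances of 1462 and 1521 bp were nearly the same. At 3100 and above they were 57.7% (n = 52) and 78.4% (n = 927). Still, 75 of the 206 pairs (36.4%) had another peak within 1000 bp. This share was 38.2% for pairs strong for both, 43.6% for pairs weak for both and 29.8% for strong ASH1 with weak FSH. For 38 of the 206 pairs none was found within 10 kb. A peak within 10 kb was present at 81.6% of them, against 89.2% of all pairs.

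The most remote site on an assembled arm was on chromosome 2L, with an FSH peak from 1361820 to 1362724 (score 3100), an ASH1 score of 242 and no other peak for 57264 bp. On the unplaced sequences, distances of 68761 bp (U, FSH peak from 5051806 to 5052164, score 1802) and 55879 bp (Uextra, 9954027 to 9954530, score 1488) were found. The ASH1 scores at these were 295 and 237. Distances on unplaced sequences depend on how their pieces were joined.

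**Figure D5:**
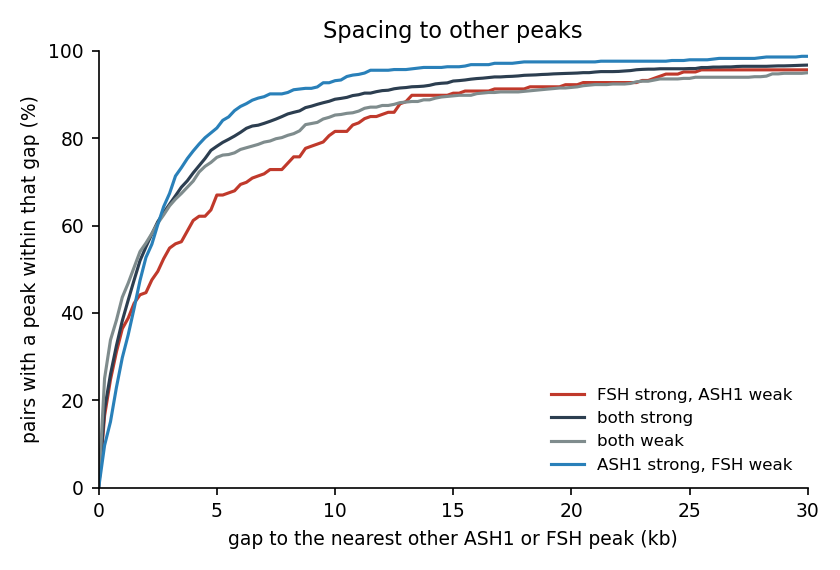
Cumulative percentage of pairs (y axis) that have another ASH1 or FSH peak within a given gap in kb (x axis), for the FSH-strong, ASH1-weak pairs (red, n = 206) and for the 3 other combinations of strong and weak scores. From 3 kb, where it stands at 54.9%, to 10 kb, where it stands at 81.6%, the red curve lies below the others.

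The peaks next to these sites did not carry the same contrast, which the choice of pairs had set for the paired peaks only. The nearest other ASH1 peak had a median score of 693 (480 to 910), far above the 161 of the paired ASH1 peaks, and within intervals that overlapped with 647 (556 to 744) at pairs weak for both proteins and 875 (827 to 921) over all pairs. The nearest other FSH peak had a median score of 736 (569 to 1002), below the 1891 of the paired FSH peaks and close to the 682 found over all pairs (650 to 722). An ASH1 peak of at least 1000 was the nearest ASH1 neighbour within 5 kb at 56 pairs (27.2%, against 36.4% of all pairs). An FSH peak of at least 1000 was the nearest FSH neighbour within this distance at 57 pairs (27.7%, against 30.1%). The scores of neighbours were not used to choose the pairs, but they come from the same pooled libraries.

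The sites were scattered over the arms. The median spacing of successive sites was 212 kb on X, 310 kb on 2R, 439 kb on 3L, 516 kb on 2L and 589 kb on 3R. In 15 of 206 cases the next pair on the same sequence was of the same kind, which is 7.28% (4.46% to 11.7%), beside a share of 2.93% among all pairs. For pairs with strong ASH1 and weak FSH this share was 17.1%, beside 8.94%. When peaks with gaps under 1 kb were merged first, the share for the pairs described here was 5.03% (2.57% to 9.61%). At that setting 159 of 6141 pairs were of this kind, a share that the interval just included. The 206 sites formed 177 single sites, 13 runs of 2 consecutive pairs and 1 run of 3.

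The run of 3 was located on chromosome 3L from 10239264 to 10315547. Its FSH scores were 3100, 2113 and 1829, with ASH1 scores of 171, 92.0 and 249, and all 3 ASH1 peaks were contained in their FSH peaks. The centres of both peaks lay within 22 bp at each site, and no other peak was called for 20490 bp around the first. The shortest run of 2 was found on chromosome 2L from 13877787 to 13879517. Here, FSH peaks with scores of 1515 and 1524 were separated by 80 bp and overlapped ASH1 peaks with scores of 69.7 and 125. On the X chromosome, FSH peaks with scores of 1781 and 3163 lay 15 bp apart between 15998234 and 16000275, with ASH1 scores of 156 and 230. The score of 3163 was the highest FSH score of all 206 pairs. A split of 1 broad signal by the peak caller and 2 separate sites cannot be told apart for such neighbours.

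The small chromosome 4, which is largely heterochromatic, carried 3 of these sites among 84 pairs. Their FSH peaks started at 246279, 251674 and 427325, with scores of 1215, 1122 and 1153, and the ASH1 scores were 205, 281 and 164. In all 3, the ASH1 peak was contained in the FSH peak. The FSH peaks of 642 to 944 bp were similar in length to those of the other chromosomes.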

How the data were processed

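Chromatin of S2-DRSC cells was profiled by ChIP-seq in 4 libraries. Reads were mapped by the authors with Bowtie 0.12.7 (BDGP Release 5), who pooled the alignments per protein with SAMtools 0.1.9 and called peaks against input with MACS 1.4.0 at a P value cut-off of 1e-05. Reads with several matches could be placed at one of them. The lists deposited by the authors hold start, end and 1 score per peak, without a header. The depth behind each peak is unknown.

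Peaks were paired as described in the report, leaving out the mitochondrial genome. Pairs of other score combinations used the same limits of 1000 and 300. Gaps to other peaks were measured from the outer edges of a pair. Shares have Wilson intervals and medians have binomial intervals, both at 95%, for counting error only. With 1 pooled list per protein, no test was made. The score limits, comparisons and measures were chosen with earlier results of these data known. Sites were named by rules on score, length, distance and runs. The pairs on chromosome 4 and 2 further long FSH peaks were added after their values were seen. Genes and sequences were not assigned, because only a gene table of another assembly release was at hand. Calculations used scipy 1.17.1, pandas 2.3.3, numpy 2.4.6 and matplotlib 3.10.9 under Python 3.11.15. Pairing was tested on simulated lists, and the overlaps were checked against BEDTools 2.31.1. Alternatives were other score limits, ranks, a stricter overlap, arms only, other pairings, merged peaks and other neighbour distances.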

Additional observations from a re-analysis of the deposited data

How the results depend on the processing

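Of 86 values recalculated under other settings, 75 stayed within the interval of the reported value or, for the number of pairs, within 1.5 times of it. The number of pairs was 133 at FSH scores of at least 1500, 52 at 3100 and above, and 129 with ASH1 below 200. With FSH of at least 1500, the nearest other FSH peak had a median score of 1004. With FSH of at least 3100, the centres of both peaks were 21.75 bp apart, 57.7% of the pairs had another peak within 5 kb, and 19.2% lay on X (10.8% to 31.9%), an interval that includes the 15.6% of all pairs. With ASH1 below 200, the median ASH1 length was 552 bp. After merging of peaks with gaps under 1 kb, 51.6% had another peak within 5 kb, against 67.7% of all pairs. Another peak was present within 2 kb at 44.7% and within 10 kb at 81.6%, against 55.1% and 89.2% of all pairs. The lower numbers of pairs and the shares at other distances follow from the changed limits, and the cause of the other shifts was not tested. The share of contained ASH1 peaks stayed between 68.9% and 78.2% in all settings. Settings added after the data had been seen were ranks within X and within the autosomal arms and the removal of pairs with another peak within 100 bp. No paired analysis was possible because the antibodies of each protein were pooled before peaks were called, and no replicate could be left out for the same reason.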

Other observations

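The shortest sites shared an arrangement, which was noticed after their values had been seen. The FSH peak of 224 bp on chromosome 2L and that of 250 bp on chromosome 3R each stood 287 bp from an FSH peak with a score of 3100, whose length was 1066 and 1044 bp. The ASH1 list showed a similar layout, with ASH1 peaks of 973 and 969 bp, both with a score of 3100. They lay 319 and 318 bp from the edges of these short FSH peaks. The gaps to the short ASH1 peaks were wider, from 20747085 to 20747429 on 2L and from 23176037 to 23176364 on 3R. On chromosome 2L a further FSH peak of 3757 bp followed, which had no counterpart within 2 kb on chromosome 3R.

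The 2 longest sites also resembled each other. The ASH1 peaks of 8503 and 7381 bp ended 1 and 10 bp before an ASH1 peak with a score of 3100 and 2183, respectively. Further FSH peaks with a score of 3100 began 417 and 451 bp after the ends of these long ASH1 peaks. At these sites, the low ASH1 scores of 50.7 and 57.6 therefore belonged to long stretches next to high-scoring ASH1 peaks. The sequence of these sites was not examined.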
